A study of Mus musculus with 10 samples.

Results

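Expression of 10 antioxidant response and metallothionein genes (Hmox1, Nqo1, Gclc, Gclm, Txnrd1, Srxn1, Gpx3, Mt1, Mt2 and Slc7a11) was followed in the left ventricle of mice after transverse aortic banding (TAB), which narrows the aorta and loads the ventricle with pressure. The genes were taken by symbol from the array, where each had 1 probe, so that 10 of 19942 genes and 10 of the 26423 deposited probes were described. The mice were male C57BL/6J of 8 weeks and 20 to 25 g at surgery, and the controls were sham-operated mice. Left ventricles were sampled at 5 times, 3, 5, 7, 14 and 28 days from surgery, with 1 TAB and 1 sham sample at each (10 samples in all). One of the labels of the day 14 TAB sample gives 15 days. The number of mice in a sample is not given in the sources used here. A difference on a single day therefore had no replicate check, and tests were run only on the average over the 5 days and on early against late days. The p-values measure how the TAB/sham ratio varied between days, which includes any change of the TAB effect over time. A change over time that both operations share is taken out by blocking on the day.

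Most of these genes belong to the response that the transcription factor NRF2 drives when oxidants or electrophiles release it from its inhibitor KEAP1. Their products remove haem (Hmox1), reduce quinones (Nqo1), import cystine (Slc7a11) and build glutathione from it (Gclc and Gclm), or keep thioredoxin and peroxiredoxins reduced (Txnrd1 and Srxn1). Gpx3 is a secreted glutathione peroxidase that depends on selenium. Mt1 and Mt2 encode metallothioneins, small cysteine-rich proteins that bind zinc and copper, whose genes respond to metals through the factor MTF1 and also to glucocorticoids and inflammatory cytokines.

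All 10 probes passed the filter on low values, and 9 were found by the scanner software on all 10 arrays. The spot of Slc7a11 was found on no array, so that its values below are not well above background. No member was saturated, since the highest raw intensity was 33299 (Mt1), below the 65000 at which a spot was treated as saturated. The share of spots not found ran from 40.25% to 47.32% per array and was highest on the TAB array of day 3. The tissue label was checked against 10 cardiomyocyte genes, all of which were measured, and their 12 probes were found on all 10 arrays. Whole tissue was measured, so that a change in the number of cells of a type and a change in RNA per cell cannot be told apart.

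Hmox1 and Gpx3 rose after TAB, and no member fell. Hmox1 was on average 5.00-fold higher and Gpx3 2.53-fold higher in TAB than in sham, and for both the 5 TAB values all lay above the 5 sham values. Mt2 (2.10-fold), Srxn1 (1.36-fold) and Mt1 (1.31-fold) had averages above sham that did not pass the test, and Nqo1 was lower in TAB on 5 of 5 days without passing it either. Txnrd1 (1.19-fold), Gclm (1.14-fold) and Gclc (0.921-fold) had averages nearest to sham, and for Slc7a11 no fold is given.

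The average TAB effect was tested with limma on log2 values, blocked by day and fitted on all 19976 probes that passed the filter, with Benjamini-Hochberg adjustment over all of them. With an adjusted p under 0.05, 2 of 10 members were called higher and 0 lower, where 7.47% of all probes were called higher and 6.73% lower. At an unadjusted p under 0.05 there were 6 members, against 33.8% of all probes. All 5 TAB values lay above all 5 sham values for 2 of 10 members, against 8.78% of all probes, and below them for 0 of 10, against 7.59%. The values of 2 of 10 members, Hmox1 and Gpx3, were higher in TAB on 5 of 5 days, as were 15.6% of all probes. The median of the average log2 TAB/sham ratios was 0.32 over the members and -0.05 over all probes. Of the calls over all probes, 1492 were higher and 1344 lower, and median scaling alone gave 1747 higher and 884 lower, and quantile normalization within each operation 1856 and 979. Members were called the same under both, 2 higher and 0 lower.

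**Figure D1:**
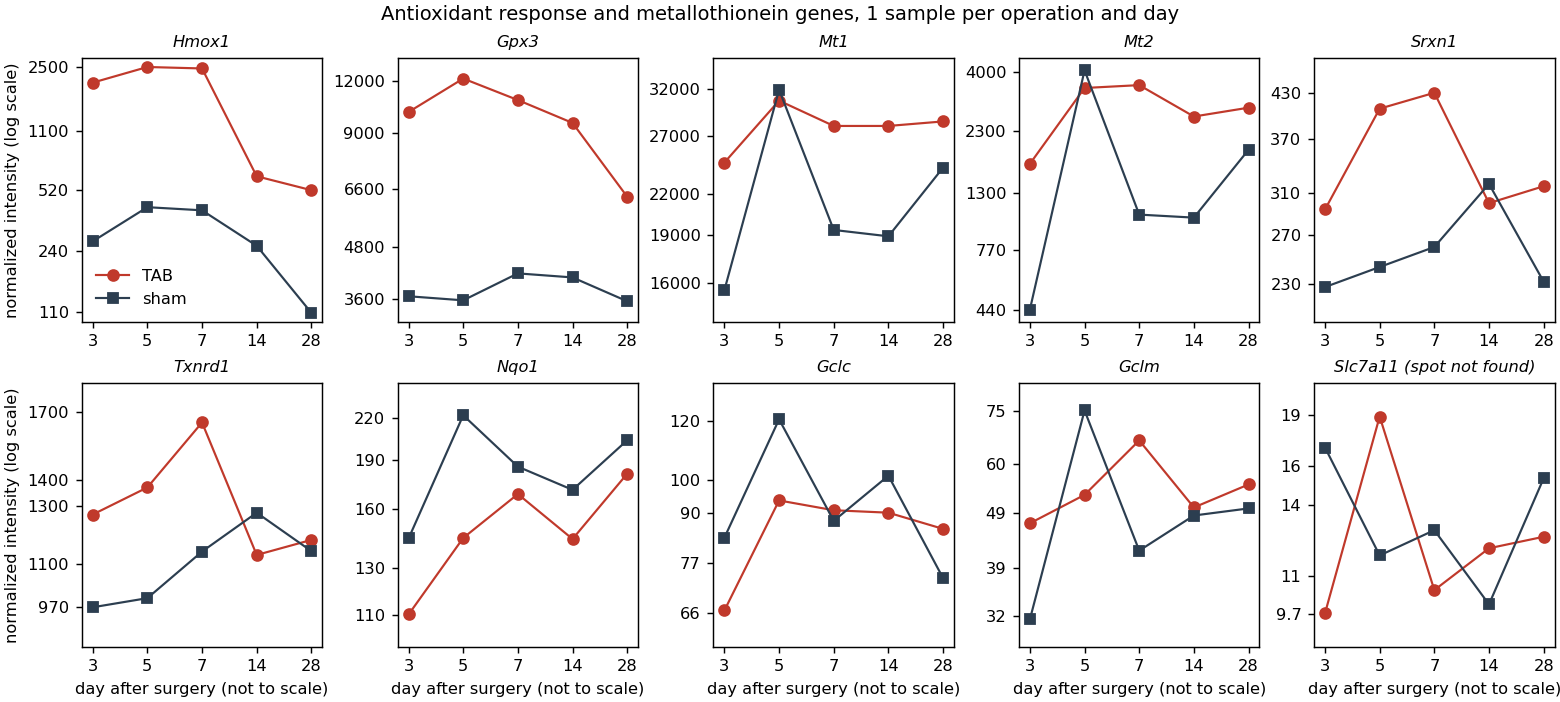
Normalized intensity on a log scale of the 10 genes on days 3, 5, 7, 14 and 28, with 1 TAB sample (red circles) and 1 sham sample (dark squares) per day and a separate axis for each gene. The TAB and sham values of Hmox1 and Gpx3 do not overlap, Mt1 and Mt2 have their highest sham value on day 5, and Slc7a11 was found on no array.

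Hmox1 encodes the inducible haem oxygenase, which breaks haem down to biliverdin, carbon monoxide and iron. In the order of the 5 days, its normalized intensity in TAB was 2042, 2492, 2446, 621 and 520.1. In sham it was 271, 419, 403, 257 and 109 (the same order holds for all such series below). The lowest TAB value, of day 28, was thus above the highest sham value, of day 5, although both operations had their lowest value on day 28. The daily TAB/sham ratio was 7.53-fold, 5.95-fold, 6.07-fold, 2.42-fold and 4.76-fold, lowest on day 14. On the log2 scale the average was 2.32 (SE 0.25, adjusted p = 0.0143 from limma, higher on 5 of 5 days). Leaving out both samples of day 3, 5 or 7 gave adjusted p-values of 0.0670, 0.0630 and 0.0687 from limma, with log2 ratios of 2.17, 2.26 and 2.25.

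For single days the methods of the study count a gene as differentially expressed (DE) if it lies more than 2 SDs out in the log2 ratios of all genes, which here came to between 1.38 and 1.87. By this rule Hmox1 was up-regulated on days 3, 5, 7 and 28, where 3.07%, 3.77%, 3.71% and 3.36% of all probes were. On day 14 its log2 ratio of 1.27 stayed under the 1.46 needed. Mt2 was the other member called, with log2 ratios of 1.95 on day 3 and 1.73 on day 7. The members had 6 calls in 50 combinations of gene and day, all of them up-regulated. Down-regulated by the rule were 2.33%, 1.69%, 1.77%, 2.37% and 2.55% of all probes on the 5 days, 3.29% were up-regulated on day 14, and 0.31% were up-regulated on all 5 days, as 0 members were. With 2-fold (an absolute log2 ratio of 1) in place of the 2 SDs, 9.63%, 10.7%, 9.2%, 7.23% and 5.86% of all probes were up-regulated on the 5 days, and the members had 12 calls, which also took in Gpx3 on days 3, 5, 7 and 14, Hmox1 on day 14 and Mt2 on day 14.

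Macrophages are a known site of Hmox1 expression, and their markers rose in the same samples. Of 11 macrophage genes, 9 were measured above the filter, and 9 of these 9 were called higher in TAB (median log2 ratio 1.26), among them Cd68 (2.01, adjusted p = 0.0266 from limma) and Csf1r (0.86, adjusted p = 0.0331 from limma). Their summed normalized intensity lay between 9771 and 23411 in TAB and between 5663 and 6959 in sham. The ratio of this sum was 2.84-fold, 3.39-fold, 3.29-fold, 2.15-fold and 1.43-fold. Hmox1 had a higher ratio than this sum on each of these days, and on days 3 and 28 its ratio was above that of every marker of the list. On days 5, 7 and 14, a higher ratio than that of Hmox1 was seen for 2, 1 and 2 of the 9 markers. Fibroblast markers had 4 of 7 probes called higher (Col1a2, Col3a1, Lum and Postn) and 0 lower. Of the cardiomyocyte probes 0 of 12 were called higher and 2 lower, both of Atp2a2, and Myl2 was saturated on 9 of 10 arrays. Without Myl2, the summed intensity of the other 11 probes lay between 217922 and 231143 in TAB and between 243483 and 272798 in sham. By the same limma test 0 of 9 endothelial and 0 of 3 erythroid probes were called (1 of the 3 erythroid probes was called higher under median scaling alone and under quantile normalization within each operation), and 1 of 4 adipocyte probes was higher (Cfd). Of 7 neutrophil probes, 3 were found on no array, among them the 1 called higher (S100a8, for which no fold is given). The part of these cell types in the Hmox1 and Gpx3 values was not tested.

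**Figure D2:**
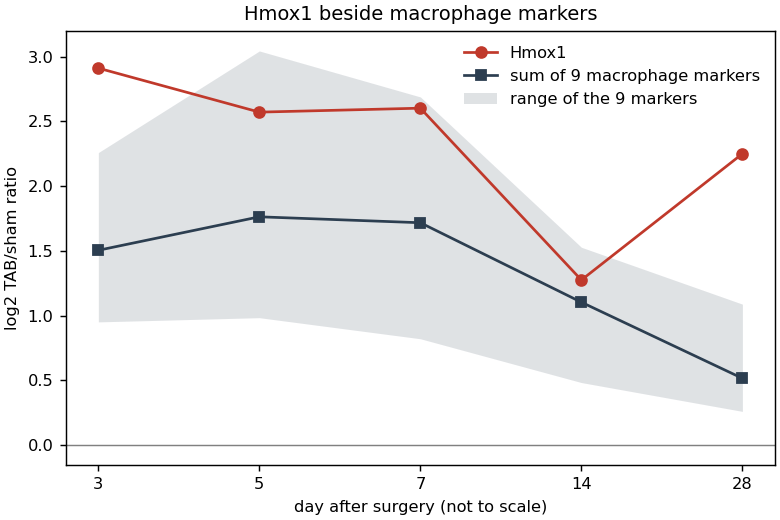
log2 TAB/sham ratio of Hmox1 (red) and of the summed intensity of 9 macrophage markers (dark), with the range of the 9 markers shaded, on each day. Hmox1 lies above the shaded range on days 3 and 28 and inside it on days 5, 7 and 14.

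Gpx3 was the other gene that rose. Its normalized intensity in TAB was 10128, 12188, 10821, 9534 and 6337. The sham samples had 3653, 3571, 4146, 4054 and 3553, a range of 1.17-fold that was the narrowest of the 10 genes. The groups lay far apart relative to this spread, and the TAB value nearest to sham was that of day 28. The ratio was 2.77-fold, 3.41-fold, 2.61-fold, 2.35-fold and 1.78-fold on the 5 days, and the log2 ratio averaged 1.34 (SE 0.15, adjusted p = 0.0152 from limma, higher on 5 of 5 days). No day passed the 2 SD rule, with day 5 nearest to it at 1.89 SDs. Leaving out the samples of day 3, 5, 7 or 14 gave adjusted p-values of 0.0718, 0.0630, 0.0760 and 0.0506 from limma, with log2 ratios between 1.23 and 1.37.

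The daily ratios of the early samples (days 3, 5 and 7) were also compared with those of the late samples (days 14 and 28) in limma. The mean ratio of Hmox1 was 6.48-fold on the early and 3.39-fold on the late days, a log2 difference of 0.93 (SE 0.35, unadjusted p = 0.0447, adjusted p = 0.472 from limma). For Gpx3 the means were 2.91-fold and 2.05-fold (log2 difference 0.51, SE 0.24, adjusted p = 0.526 from limma). Of the 10 members, 0 were called and 2 had an unadjusted p under 0.05, Hmox1 and Txnrd1. Over all probes the same limma test called 0 of 19976 (0%), with 2086 (10.4%) at an unadjusted p under 0.05 and a lowest adjusted p of 0.227 from limma.

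**Figure D3:**
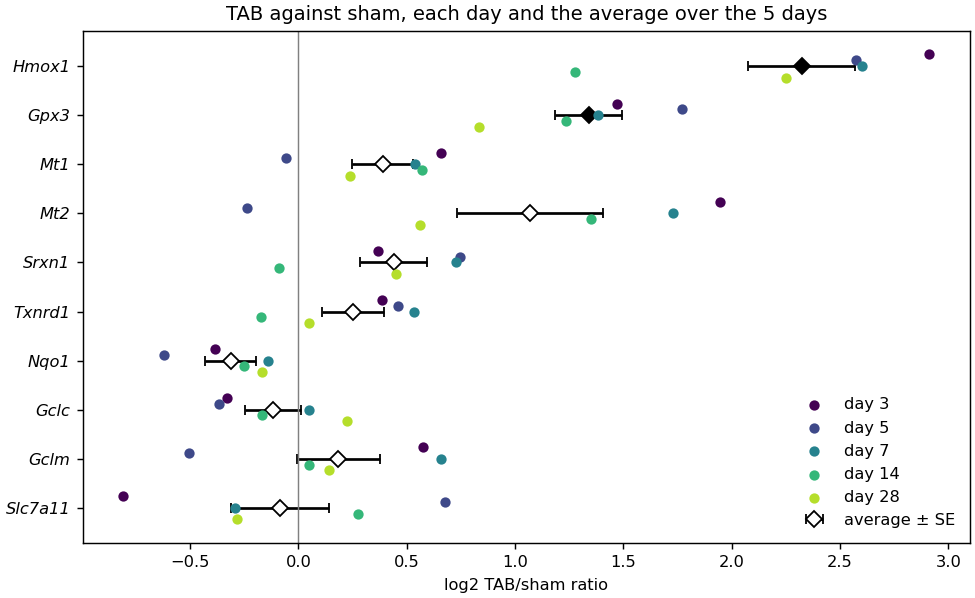
log2 TAB/sham ratio of each gene on each day (coloured points) and the average over the 5 days with its SE (diamonds, filled where the adjusted p from limma was under 0.05). Hmox1 and Gpx3 have filled diamonds, the day 5 points of Mt1 and Mt2 lie below 0, and all 5 points of Nqo1 lie below 0.

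The metallothioneins varied more between sham samples than between TAB samples. The normalized intensity of Mt2 in sham was 442, 4047, 1065, 1035 and 1940.0, lowest on day 3 and highest on day 5, a range of 9.15-fold. A sham range at least as wide was seen for 1.05% of all probes and for 0.277% of the 12654 probes found on all arrays. In TAB the values were 1703, 3437, 3529, 2639 and 2864, a range of 2.07-fold. No TAB value exceeded the sham value of day 5, and 4 of 5 days had the higher value in TAB.

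The Mt2 ratio was 3.85-fold, 0.849-fold, 3.32-fold, 2.55-fold and 1.48-fold. On the log2 scale it averaged 1.07 (SE 0.34, adjusted p = 0.0812 from limma). It was called when the test was limited to probes found on all arrays (adjusted p = 0.0243 from limma, a fit that called 16.1% of its probes higher) or when 50 was added to the intensity (adjusted p = 0.0409 from limma, a fit that called 11.8% higher). Without both samples of day 5 the log2 ratio was 1.40 (adjusted p = 0.0750 from limma).

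Mt1, whose probe was far brighter and is not comparable in level with that of Mt2, followed Mt2 in sham. Its sham values were 15573, 31909, 19315, 18881 and 24142, in the same order of days from lowest to highest as those of Mt2. The TAB values were 24586, 30687, 28029, 28029 and 28486, and all 5 lay within the sham range. On day 5 TAB was at 0.962-fold of sham, and on the other days the ratio lay between 1.18-fold and 1.58-fold. For Mt1 the log2 ratios averaged 0.39 (SE 0.14, adjusted p = 0.112 from limma), and with probes found on all arrays only, with 50 added or with trend and robust on, it was called (adjusted p = 0.0457, 0.0442 and 0.0277 from limma). With trend and robust on, 11.5% of all probes were called higher.

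Both genes lie side by side on mouse chromosome 8, with 6471 bases between their annotated starts in RefSeq (GRCm38.p6). Metallothionein promoters are known for metal response elements (MREs), short sites bound by MTF1, and many NRF2 targets carry an antioxidant response element (ARE). The letters TGCACNC or TGCGCNC (MRE core), TGACNNNGC (ARE core) and TGAGTCA (the site of AP-1 factors) were searched on both strands from 250 bases before to 50 bases after each annotated start. An entry was at hand for 8 of the 10 genes, in 10 windows, and Hmox1 and Gclc had none. The MRE core was in the windows of 4 genes (25.7% of all 32851 windows had it), the ARE core in those of 4 genes (12.4% of all) and the AP-1 site in those of 2 genes (5.2% of all). Matches of the MRE core numbered 4 for Mt2, 3 for Mt1, 3 for Gclm and 1 for Srxn1. The ARE core match of Mt2 overlapped its AP-1 match, and that of Gclm overlapped an MRE core match. Those of Mt1 and Mt2 are printed because metallothionein promoters are known for these elements. In the order printed they begin at -23, 3 and 21 for Mt1 and at -223, -128, -50, 5 and -79 for Mt2. Positions count from the annotated start, so that those without a minus sign lie after it. Capitals mark the MRE core in the first 7 lines and the ARE core in the last, and all lines are plus strand of GRCm38.p6.
Mt1, chr8:94179056-94179083: ggtcccgctgTGCACACtggcgctccag
Mt1, chr8:94179081-94179108: cagggagctcTGCACTCcgcccgaaaag
Mt1, chr8:94179099-94179126: gcccgaaaagTGCGCTCggctctgccaa
Mt2, chr8:94172385-94172412: gcatcgcctcTGCACCCggcccctcggg
Mt2, chr8:94172480-94172507: gcagacccttTGCGCTCagctcctttgc
Mt2, chr8:94172558-94172585: gggggagggcGTGTGCAggctctgtccc
Mt2, chr8:94172612-94172639: aattcgggtcGTGCGCAggcccaggggc
Mt2, chr8:94172530-94172557: aagggggtgTGACTCAGCgcggggggtg

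These matches describe letters in the reference and do not show that a site is bound. The remaining windows with a match were those of Srxn1, Gclm and Txnrd1. Srxn1 had 1 match of the ARE core, 1 of the MRE core and 2 AP-1 sites, of which the pair of AP-1 sites is shown with the site in capitals.
Srxn1, chr2:152105412-152105439: tcggagggccTGAGTCAccacgctgtgc
Srxn1, chr2:152105469-152105496: aaattcacccTGAGTCAgcggccgggcg

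In sham, Mt1, Mt2, Nqo1 and Gclm had their values of days 5 and 28 above those of days 3, 7 and 14, a pattern noticed after the values were seen. These were 4 of 10 members, against 11.1% of all probes that passed the filter. Since the pattern was chosen with these values known, the count is a description and no test. For Gclm and Nqo1 the lower value of days 5 and 28 was 1.03-fold and 1.10-fold of the highest other day. Of 21 probes of zinc and metal genes, 4 had the pattern. Of a list of 11 glucocorticoid-induced genes, 7 had this pattern, among them Zbtb16, Tsc22d3 and Fkbp5. Sgk1, Dusp1, Cebpd and Lcn2 of the list did not have it, and the sham values of Sgk1 and Dusp1 were highest on day 14. Tsc22d3, which encodes the glucocorticoid-induced leucine zipper, had sham values of 1512, 3825, 1602, 1558 and 3616. Its TAB values were 1023, 1421, 1665, 3442 and 3456, so that the order of days seen in sham was not seen in TAB. By the test of the average TAB effect, 1 of the 11 probes was called higher (Serpina3n, an acute-phase protease inhibitor, log2 ratio 2.54) and 1 lower (Dusp1, a phosphatase of MAP kinases, log2 ratio -1.25). Their part in the metallothionein values was not tested. The share of spots not found on the sham arrays of days 5 and 28 was 44.52% and 40.25%, and on the others it lay between 40.99% and 45.45%.

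**Figure D4:**
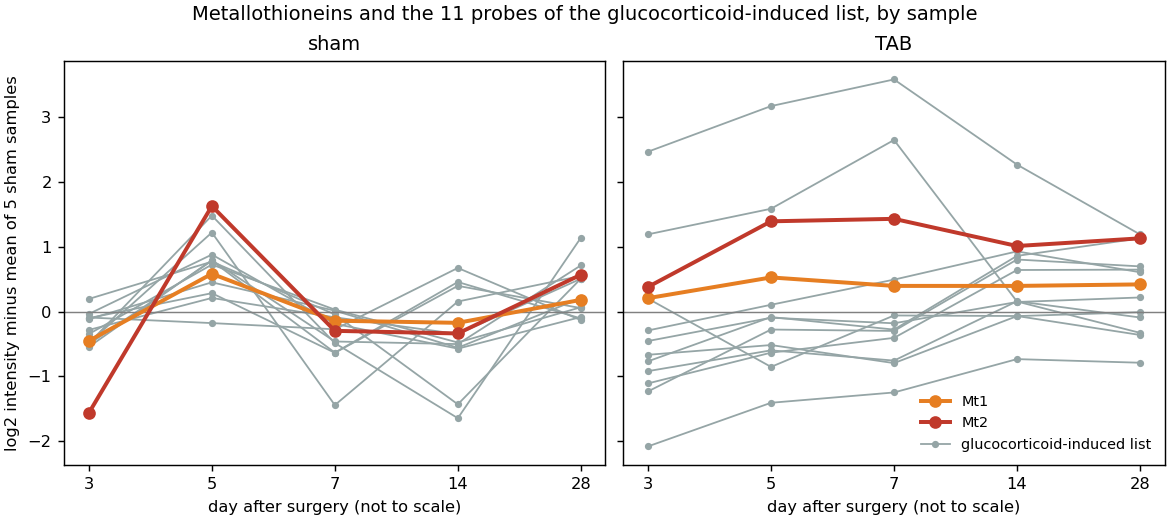
log2 intensity minus the mean of the 5 sham samples on each day, in sham (left) and TAB (right), for Mt1, Mt2 and the 11 probes of the glucocorticoid-induced list (grey). Mt2 spans 3.19 on the log2 scale in sham and 1.05 in TAB.

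Srxn1 and Txnrd1 had their highest TAB values on day 7. Srxn1 encodes sulfiredoxin, which restores oxidized peroxiredoxins. Its TAB values were 294, 408, 430.1, 299.9 and 317, and its sham values were 228, 243, 259.9, 319 and 232. The groups overlapped through day 14, the only day with the lower value in TAB. The ratio was 1.29-fold, 1.68-fold, 1.65-fold, 0.939-fold and 1.37-fold, averaging 0.44 on the log2 scale (SE 0.15, adjusted p = 0.103 from limma). Srxn1 was called with probes found on all arrays only (adjusted p = 0.0394 from limma), with 50 added (adjusted p = 0.0491 from limma) and with trend and robust on (adjusted p = 0.0439 from limma).

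Txnrd1 encodes the cytosolic thioredoxin reductase, a selenoprotein. It had TAB values of 1267, 1370, 1651, 1128 and 1178 and sham values of 971, 996, 1139, 1274 and 1141. TAB was above the sham sample of the same day by 1.31-fold, 1.37-fold and 1.45-fold on days 3, 5 and 7, and the ratio was 0.886-fold on day 14 and 1.03-fold on day 28. On the log2 scale this averaged 0.25 (SE 0.14, adjusted p = 0.272 from limma), and the log2 difference between early and late days was 0.52 (SE 0.20, unadjusted p = 0.0450, adjusted p = 0.472 from limma).

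Nqo1 encodes a quinone reductase that is widely used as a marker of NRF2 activity. Its TAB values of 110.2, 144, 168, 144 and 181 were each below the sham value of the same day, which were 144, 222, 185, 171 and 203. The ratio lay between 0.650-fold on day 5 and 0.908-fold on day 7, and the mean on the log2 scale was -0.31 (SE 0.12, adjusted p = 0.119 from limma). 17.4% of all probes were likewise lower on 5 of 5 days.

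Gclc and Gclm encode the catalytic and the modifier subunit of the enzyme that starts glutathione synthesis. Gclc had normalized intensities between 66.5 and 93.7 in TAB and between 73.5 and 120.8 in sham (average log2 ratio -0.12, SE 0.13, adjusted p = 0.567 from limma). Gclm lay between 47.0 and 66.3 in TAB and between 31.6 and 75.0 in sham (0.18, SE 0.19, adjusted p = 0.546 from limma). The daily ratios of both genes had mixed signs, with 2 of 5 days higher in TAB for Gclc and 4 of 5 for Gclm. The cystine transporter Slc7a11 was at 9.71 to 18.9 in TAB and 10.01 to 17.02 in sham, near background in all samples, and no fold is given.

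Other genes of the same pathways were taken from lists by role, with a count of probes called in each direction to be read against the 7.47% and 6.73% of all probes given above. Among the regulators of the NRF2 response, 0 of 8 probes were called higher and 1 lower. The one called was Bach1, a repressor of Hmox1 that haem inactivates (log2 ratio -0.48, SE 0.10, adjusted p = 0.0367 from limma, lower on 5 of 5 days), and it was not called under median scaling alone, where 0 of the 8 probes were called in limma. Nfe2l2, which encodes NRF2 itself, and Keap1 had average log2 ratios of 0.04 and -0.03 (adjusted p = 0.811 and 0.894 from limma). Mafk and Maff, small MAF partners of NRF2 and BACH1, had 0.47 and 0.49 without passing the test (adjusted p = 0.0712 and 0.118 from limma), and Mafk was called higher under quantile normalization within each operation (adjusted p = 0.0489 from limma).

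For glutathione synthesis and use, 1 of 26 probes was called higher and 3 lower (median log2 ratio -0.09). Gpx1, the main cytosolic glutathione peroxidase, rose with a log2 ratio of 0.82 (adjusted p = 0.0196 from limma), whereas Gstk1 (-0.89), Oplah (-0.70) and Gstt1 (-0.52) fell. The call of Gstt1 was lost under median scaling alone (1 higher and 2 lower) and under quantile normalization within each operation (2 higher and 2 lower, with Gpx8 called higher). In the thioredoxin, peroxiredoxin and methionine sulfoxide reductase list, 1 of 17 probes was called higher and 3 lower (median -0.34). Prdx4, a peroxiredoxin of the endoplasmic reticulum, rose (0.73, adjusted p = 0.0444 from limma). Txnrd2, the mitochondrial thioredoxin reductase, and Msrb2 fell (-0.58 and -0.60). Txn1, also called lower, was found on 3 sham arrays and no TAB array. Its normalized intensities ran from 9.81 to 22.9 in TAB and from 19.8 to 41.9 in sham, and no fold is given. Under median scaling alone 2 probes of this list were called higher and 1 lower (median -0.24), with the calls of Txnrd2 and Msrb2 lost and Msrb1 called higher. Quantile normalization within each operation gave 2 higher and 2 lower, with the call of Msrb2 lost. The superoxide dismutase and catalase list had 0 of 4 probes called in limma, and these give no value for Sod1, which was not analysed here, or for catalase, which was below the filter. Sod3, the extracellular enzyme, had 0.38 with all TAB values above all sham values (adjusted p = 0.0580 from limma), and the probe of mitochondrial Sod2 found on all arrays had -0.50 with all TAB values below (adjusted p = 0.0619 from limma). Under median scaling alone and under quantile normalization within each operation, 1 of the 4 probes, that of Sod3, was called higher.

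NADPH is the reductant that Nqo1, Txnrd1 and glutathione reductase use. Of 10 probes of its supply, 3 were called higher and 2 lower. Tkt (0.94), G6pdx (0.71) and Pgd (0.61), enzymes of the pentose phosphate pathway, rose with adjusted p-values of 0.0372, 0.0497 and 0.0314 from limma, while Taldo1, another enzyme of that pathway, had 0.04 (adjusted p = 0.842 from limma). Malic enzyme Me1 (-0.64) and mitochondrial Idh2 (-0.61) fell, and the call of Me1 was lost under median scaling alone and under quantile normalization within each operation, which both gave 3 higher and 1 lower. In quinone and phase 2 metabolism, 2 of 11 probes were called higher, Akr1b8 (1.58, adjusted p = 0.0298 from limma) and Cbr3 (0.67), and 2 lower, Cbr1 (-0.53) and Nqo2 (-0.50), where median scaling alone gave 2 higher and 0 lower and quantile normalization within each operation 2 higher and 1 lower (Cbr1). A further probe of Nqo2 had the opposite sign (0.22, adjusted p = 0.182 from limma), so that the direction of Nqo2 depends on the probe.

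In haem and iron handling, 4 of 24 probes were called higher and 1 lower. Slc11a1 (1.21), a metal transporter of phagocytes, Lrp1 (0.83), a receptor for haemopexin among other ligands, Tfrc (0.77), the transferrin receptor, and Trf (0.57), transferrin, rose. Alad, an enzyme of haem synthesis, fell (-0.65). The constitutive haem oxygenase Hmox2 had 2 probes with opposite signs, 0.22 and -0.53, of which neither passed the test (adjusted p = 0.218 and 0.0666 from limma). Biliverdin reductase B, which acts after haem oxygenase, had 0.42 (adjusted p = 0.0643 from limma), and it was called higher under median scaling alone and under quantile normalization within each operation (adjusted p = 0.0451 and 0.0408 from limma), which both gave 5 higher and 1 lower. The erythroid marker Alas2, an enzyme of haem synthesis, was higher in TAB on all 5 days (0.81, adjusted p = 0.0588 from limma) and was the erythroid probe called under other scalings.

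Among zinc and other metal genes, 7 of 21 probes were called higher and 0 lower (median log2 ratio 0.21). With the largest changes were the zinc importer Slc39a6 (1.55, adjusted p = 0.0299 from limma) and the zinc transporters Slc30a7 (0.75, adjusted p = 0.0364 from limma) and Slc39a13 (0.69, adjusted p = 0.0399 from limma). A further probe of Slc30a7 had 0.38 and did not pass the test. Mtf1, the metal sensor that acts on Mt1 and Mt2, had an adjusted p of 0.996 from limma. The counts were 7, 7 and 6 higher and 0 lower under median scaling alone, quantile normalization within each operation and the mean of each rank. For NADPH oxidase, which produces superoxide, 4 of 10 probes were called higher and 0 lower (median 0.64). Nox4 rose with 1.28 (adjusted p = 0.0288 from limma), Ncf1 with 0.87 (adjusted p = 0.0403 from limma) and Cyba with 0.77 (adjusted p = 0.0460 from limma). Cybb, the catalytic subunit of phagocytes, was found on 4 TAB arrays and no sham array and was 3.04-fold higher in TAB against a floor in sham. Ncf1, Cybb and Slc11a1 are expressed in phagocytes, whose markers rose in the same samples as given above, and the part of these cells was not tested.

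**Figure D5:**
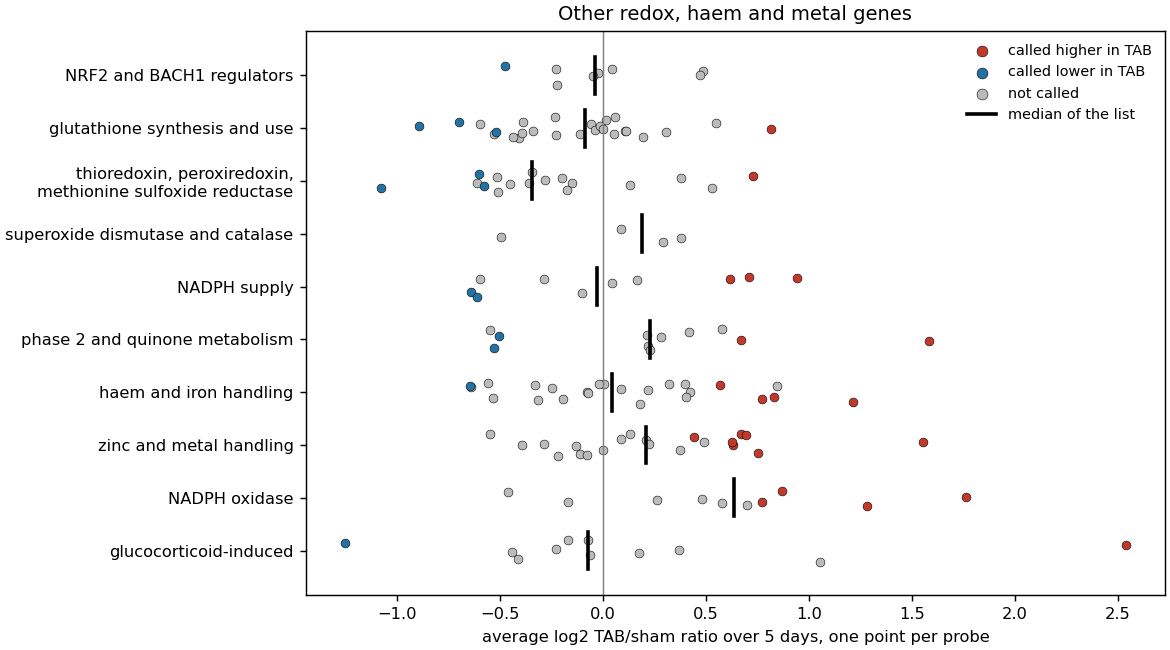
Average log2 TAB/sham ratio over the 5 days of each probe (points) of 10 lists of redox, haem, metal and glucocorticoid-induced genes, red where called higher and blue where called lower in TAB by limma, with the median of each list as a black bar. Zinc and metal handling has 7 red and no blue points and NADPH oxidase 4 red and no blue points.

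The genes with the most similar daily ratios were found by the root mean square difference over the 5 log2 ratios, among 12060 probes with a symbol found on all arrays. For Hmox1 they were a probe of the fetal myosin heavy chain Myh7 that also carries the name of another locus (difference 0.34), Uck2 (0.37), a uridine-cytidine kinase, and Tnfrsf12a (0.40), the receptor of the cytokine TWEAK. The Myh7 probe had log2 ratios of 3.32, 2.61, 2.15, 1.34 and 2.70 on the 5 days and shared with Hmox1 the lowest ratio on day 14. For Mt2 they were Cyp1b1 (0.42), Fam46a (0.45) and Maf (0.54). Like Mt2, these 3 genes had their lowest ratios on days 5 and 28, at log2 values between 0.12 and 0.80. The comparison rests on 5 ratios per gene and says nothing of shared control.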

How the data were processed

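Total RNA of left ventricles was amplified to aRNA, which carried Cy5 and was read in 1 colour, with GenePix, on OneArray slides for the whole mouse genome. The authors deposited raw intensity per probe, with background already subtracted by a method not given in the sources used here, a detection p-value of unstated computation and a flag. The deposited p-value was used for no call. A negative flag, which the file does not explain, was read as a spot not found, so that the probe was not well above background there. For Cybb the fold against a floor compares the mean of all TAB arrays with a floor in sham. Per array this floor was the larger of the probe's own value and the dimmest found spot. The TAB mean takes in the array where the spot was not found.

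Much as in the study's methods, arrays were brought to one median, probes under 1 anywhere were dropped (6447, leaving 19976), values were quantile normalized with the median as the target of each rank, and log2 was taken. The rank medians were taken over all 10 arrays here, whereas the methods can be read as taking them within each operation, which was run as an alternative. All probes were fitted with limma (lmFit, eBayes), without choosing 1 probe per gene by its change, with Benjamini-Hochberg adjustment at 0.05. Day was a block because the study's ratios pair samples by day. Deviations of same-day samples from their group means correlated across probes with r between 0.00148 and 0.112. The fit was tested on simulated data. The number of arrays limits the precision.

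The members and lists were chosen with earlier results of these data known. Named were all members, up to 3 called genes of each list and direction by size of change, and the 3 nearest daily profiles of Hmox1 and Mt2. Marker genes, uncalled list genes, Trf, Cyba, Alas2 and the genes of the sham pattern were named after their values were seen. Alternatives changed the normalization, the filters, an added constant, the probe per gene, the block, the variance model and each day left out. Tools were Python 3.11.15, numpy 2.4.6, pandas 2.3.3, matplotlib 3.10.9, R 4.3.3 and limma 3.58.1. The miRNA arrays of the study were not used here.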

Additional observations from a re-analysis of the deposited data

Results flagged for a closer look

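Each group of 5 samples was searched for a value far from the others, in TAB and in sham for the 10 genes, which makes 20 groups. In 1 of them the gap to the nearest sample exceeded 0.71 of the group's range on the log2 scale, about the number that chance gives, 1 in 20. This was Gclc in TAB, where the lowest value, 66.5 on day 3, lay below the next, 85.8 on day 28, by 0.742 of the range. The TAB array of day 3 also had the lowest median raw intensity of the 10 arrays, 34, and the highest share of spots not found, 47.32%, whose part in this value was not tested.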

How the results depend on the processing

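The calls of Hmox1 and Gpx3 held under the other normalizations, filters and fits, and both were lost without the samples of day 3, of day 5 or of day 7, and that of Gpx3 also without day 14. Members called numbered 5 of 10 with 50 added to the normalized intensity. They numbered 5 of the 9 tested with only probes found on all 10 arrays and 4 of 10 with trend and robust on. With the samples of 1 day left out, between 0 and 2 of 10 were called. The calls over all probes were 4890 of 19976, 4377 of 12654 and 4726 of 19976 under these first 3 settings. These fits called 11.8%, 16.1% and 11.5% of their probes higher. With probes below 1 set to 1 there were 371 calls of 26423. With a day left out there were between 13 and 2773 calls (13 without day 3, 35 without day 5, 23 without day 7 and 184 without day 14). Without the day as a replicate block, 2 members and 3875 probes were called, and no call of a member changed. The test of early against late days called 0 members in every setting, with 0 to 0 with a day left out, and over all probes 9 with 50 added, 9 with only probes found on all arrays, 2 with no replicate block and 35 with trend and robust on. The calls by the 2 SD rule numbered 13 with 50 added, 12 with only probes found on all arrays, 12 with an absolute log2 ratio of at least 1 and 4 to 6 with a day left out. Over all probes the share of calls, 5.58% of the combinations of probe and day, became 4.74%, 4.67% and 16.1% under the first 3 of these. Members whose groups did not overlap numbered 2 to 4 with a day left out, when 19.5% to 27.4% of all probes did not overlap, against 16.4% with all days. The average of Slc7a11 changed sign without day 3, to 0.0935, and lay between -0.278 and 0.0935 with a day left out. Of the other values of single members under an alternative, 133 kept their direction and their side of the threshold, 8 passed it and 7 no longer did. The causes were not tested.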
